A study of Rattus norvegicus with 18 samples.

Results

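The resting transcriptome described here is that of cultured neonatal rat ventricular myocytes (NRVM) that had received vehicle and no phenylephrine. Its members are the rows of the deposited expression table that carry the status OK in the vehicle, 0 h group. There were 17306 such rows among 17312 in the table, and the group holds 3 of the 18 libraries of the series. The cells were primary cultures from the hearts of Sprague-Dawley rat pups at day 2 after birth. They were plated in medium with 10% serum and then moved to serum-free medium with ITS, a standard culture supplement, for 24 h. Vehicle followed for another 24 h, and RNA was taken at 0 h, before any phenylephrine; the labels do not name the vehicle. The other 5 groups of the study received SR9009, an agonist of the REV-ERB nuclear receptors, or phenylephrine, an agonist of α1-adrenergic receptors, or both, and they serve here only to show where an order of levels recurred. Whether the 3 libraries came from separate cultures or litters is not stated in the labels.

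A cardiomyocyte contracts when calcium, released from the sarcoplasmic reticulum through the ryanodine receptor, binds troponin on the thin filament and lets myosin pull on actin. It relaxes when the SERCA pump, held in check by phospholamban, takes the calcium back. Mitochondria supply nearly all the ATP for this, and around birth the rodent heart moves from glucose and lactate towards fatty acids while fetal or slow isoforms of several sarcomere proteins give way to adult ones. Primary cultures of neonatal ventricle also carry fibroblasts and other cells of the heart wall.

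Levels are the authors' FPKM (fragments per kilobase of transcript, scaled to the mapped fragments), 1 value per gene for the 3 libraries together, with a lower and an upper bound that are given here as "bounds". FPKM is per length, so genes can be compared with each other. No value per library was used, so no standard deviation, test or p-value accompanies any level, and 2 levels are called apart only where their bounds do not overlap. The sources used here do not state the confidence level behind the bounds, the depth, or how libraries were scaled to each other. For the 8489 rows at 5 FPKM or more, the bounds lay a median of 14.9% to either side of the value (5th to 95th percentile 12.8% to 26.2%). Loci are those of the table on rn6, with the first base counted as 1, and rows that overlap carry the locus of the whole overlapping cluster, as 1757 rows did.

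Sequence around the transcription start is shown first for genes among the most abundant in these cultures. The reason is a start feature that 38 of 79 matched genes with a ribosomal protein symbol had. Such symbols were prominent at the top of the ranking, and the expression values were not used to find the feature. Messenger RNAs of ribosomal proteins are known to begin with a C and a run of pyrimidines, the 5′ terminal oligopyrimidine tract, through which their translation is controlled by nutrient and growth signals. The sequences are from RefSeq on assembly GRCr8, from 20 bases before the start to 10 after it, read 5′ to 3′ on the gene's strand, with capitals marking the tract. They are the 4 highest ribosomal protein genes with an entry, and the ATP synthase β subunit and a cytochrome c oxidase subunit for comparison.
Rpl41: gaaggggcggctcggaagtgacgacaccaa
Rplp1: tgcgcgcaggcgcatgtgatCCTTTCCTCa
Rpl13a: caagacctcttcctttcctaggcggctgcc
Rps21: tggaagaacgagccacttCCTTTCTgtgtt
Atp5b: ccccggaccgctggagcgctcagtctccac
Cox6a2: caggtgattggctgcgagtggggaggagat
These lie at chr7:1563488-1563517 (minus strand, Rpl41), chr8:71290863-71290892 (minus, Rplp1), chr1:104748904-104748933 (minus, Rpl13a), chr3:187724018-187724047 (plus, Rps21), chr7:1100038-1100067 (plus, Atp5b) and chr1:192219707-192219736 (minus, Cox6a2). The tract was counted where a C followed by at least 4 pyrimidines began within 2 bases of the annotated first base. Of the 79 ribosomal protein symbols with a RefSeq promoter (of 95), 38 (48.1%) had it. The share was 7.73% of the 13351 matched protein-coding genes and 8.48% of all 27457 promoters of the reference. The symbols were taken by their first letters, so genes of other function with a similar symbol can be among the 79. Among the 61 matched respiratory chain and ATP synthase genes it was found in 3 (4.92%). The genes without a match in this window are only that, since an annotated start can be a few bases off.

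Promoters with a TATA box made up a small part of the genes present at rest, and a few of the abundant or hypertrophy-related genes had one. The 60 bases before the start are shown for 4 such genes and for 2 abundant sarcomere genes without it, with TATAAA in capitals where it begins 40 to 21 bases before the start on the gene's strand.
Gapdh: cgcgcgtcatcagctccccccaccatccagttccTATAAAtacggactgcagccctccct
Reg3b: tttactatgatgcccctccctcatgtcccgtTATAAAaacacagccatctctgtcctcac
Acta1: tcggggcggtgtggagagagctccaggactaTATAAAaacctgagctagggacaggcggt
Nppa: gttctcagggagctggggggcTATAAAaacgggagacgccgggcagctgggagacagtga
Actc1: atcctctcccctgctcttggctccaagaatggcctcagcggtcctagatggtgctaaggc
Tnnt2: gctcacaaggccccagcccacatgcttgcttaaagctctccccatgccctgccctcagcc
Their GRCr8 positions are chr4:159652468-159652527 (minus strand, Gapdh), chr4:112419716-112419775 (plus, Reg3b), chr19:68784195-68784254 (minus, Acta1), chr5:163712124-163712183 (plus, Nppa), chr3:121271828-121271887 (minus, Actc1) and chr13:49819063-49819122 (plus, Tnnt2). TATAAA in that window was found in 1.90% of matched protein-coding genes, in 1.08% of the 8524 of them at 1 FPKM or more, and in 1.5% of all promoters. Over the whole window of 250 bases before to 50 after the start, the E-box CACGTG, which the clock factors CLOCK and BMAL1 bind, was found in 3 of 14 matched clock genes (21.4%) and in 7.87% of matched coding genes. CATTCC, searched on both strands as the core of the TEAD site, was found in 5 of 16 matched genes (31.25%) of the sarcomere families. These were the members at 100 FPKM or more, and the families also hold smooth muscle and non-muscle forms. It was found in 12.2% of matched coding genes and in 11.2% of those at 1 FPKM or more. TCAAGGTCA and TAGGTCA were also searched on both strands, and neither was found in those 16 genes. They were found in 1 and 5 of 61 matched respiratory chain and ATP synthase genes, and in 0.240% and 2.02% of matched coding genes. A match describes the sequence only.

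The ranking was led by the contractile and energy-producing genes of heart muscle. The highest protein-coding gene was Actc1, cardiac α-actin, at 4918 FPKM (bounds 4080 to 5756; locus chr3:105507403-105512939). Next came Atp5b, the catalytic β subunit of the mitochondrial ATP synthase, at 4494 FPKM (3697 to 5291; chr7:2504708-2511748). Rps29, a protein of the small ribosomal subunit, followed at 4207 FPKM (3603 to 4810; chr6:91455333-91456709). The bounds of these 3 genes overlap, so their order among themselves is not resolved.

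Below them stood Eef1a1, the elongation factor that brings aminoacyl-tRNA to the ribosome, at 3335 FPKM, and Tnnc1, cardiac troponin C, at 3317 FPKM. Usmg5, a small protein of the ATP synthase complex, had 3106 FPKM, and Cox6a2, the heart and skeletal muscle form of a cytochrome c oxidase subunit, 2956 FPKM. The ventricular light chain Myl2 (2688 FPKM), cardiac troponin T (Tnnt2, 2652 FPKM) and Rpl41 (2561 FPKM) completed the first 10. Among the next were the calcium pump gene Atp2a2 (2359 FPKM), Gapdh (2257 FPKM), myoglobin (Mb, 2124 FPKM) and phospholamban (Pln, 2082 FPKM). None of the 29 neighbouring pairs among the 30 highest coding genes had bounds that were apart. The ranking therefore resolves broad tiers and not places.

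Among these 30 genes was Reg3b, with a known role outside contraction, energy supply, the cytoskeleton and protein synthesis. Reg3b need not be the only such gene, since the 30 were not sorted by function. It encodes a secreted C-type lectin of the pancreatitis-associated protein family, and stood at 2187 FPKM (1861 to 2512; chr4:109467272-109470510). That level overlapped those of Myl3 and Mb.

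Expression was spread over many genes, with a steep top. A level of 1 FPKM or more was found for 10638 of 17306 rows (61.5%), and a level of 100 FPKM or more for 924 (5.34%). The median of all rows was 4.61 FPKM. The 88 rows at 1000 FPKM or more held 30.9% of the summed FPKM, the 836 between 100 and 1000 FPKM held 35.2%, and the 5861 between 10 and 100 FPKM held 30.7%. The 100 highest rows held 32.8% of the sum, and 310 rows made up 50% of it. Within the 16323 rows whose symbol is protein coding in RefSeq, 10320 (63.2%) had 1 FPKM or more, the 10 highest held 6.32% of their sum and the 100 highest 29.1%. Those 100 genes had compact loci, with a median of 3617 bases (quartiles 2331 and 7073) beside 17506 bases (5685 and 47436) for all coding rows. Ribosomal protein symbols numbered 38 among the 100, and respiratory chain or ATP synthase symbols 24.

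**Figure D1:**
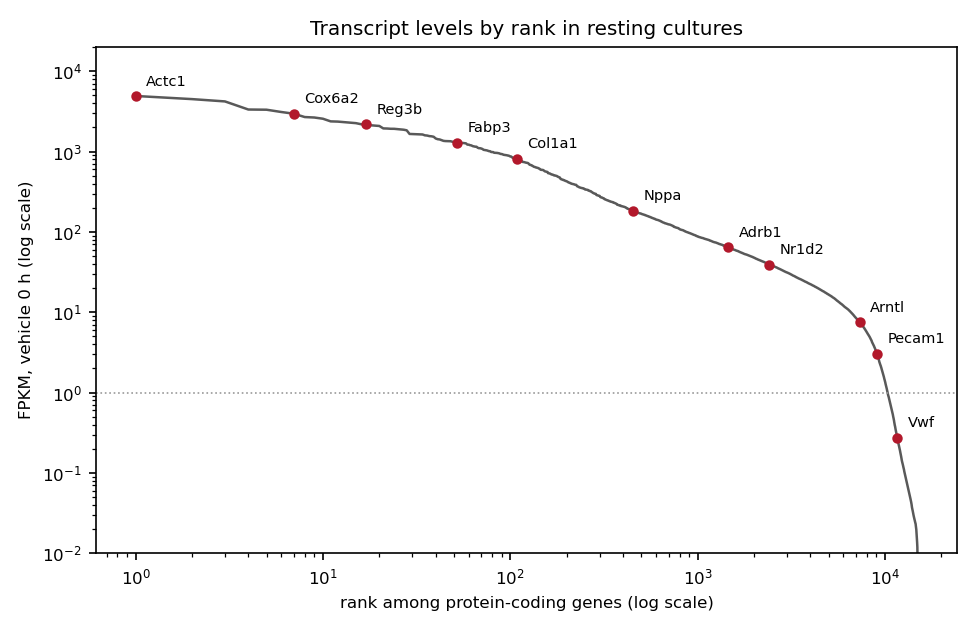
Authors' FPKM (vertical axis, log scale) of the protein-coding genes against their rank (horizontal axis, log scale) in vehicle at 0 h, with named genes as red points and a dotted line at 1 FPKM. Actc1 leads at 4918 FPKM, and the curve crosses the dotted line after 10320 genes.

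Of the 30 highest rows of any kind, 23 were protein coding. The highest of all were short non-coding RNAs: Rn5s, the 5S ribosomal RNA, at 16652 FPKM (13744 to 19560), and Rmrp, the RNA of the RNase MRP enzyme, at 15490 FPKM (13355 to 17624). Neither belongs to the usual polyadenylated messenger RNAs, and a value per kilobase multiplies the reads of very short loci. Mir3064 was listed at 5901 FPKM with bounds from 0 to 35698, within a locus that 3 rows share, and Mir1843b at 2669 FPKM with bounds from 0 to 8250. Mature miRNAs were not what the mRNA library kit named in the labels measures, and 349 of 454 miRNA rows were listed at 0. All levels below are of protein-coding genes unless stated.

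The labelled cell type was checked against its markers. All 11 cardiomyocyte markers in the table were at 100 FPKM or more, against 5.34% of all rows, with a median of 2082 FPKM. They ran from Ryr2, the calcium release channel of the sarcoplasmic reticulum, at 142 FPKM (120 to 164) to Actc1. Csrp3, the muscle LIM protein of the Z disc, had 249 FPKM, α-actinin 2 (Actn2) 560 FPKM and the myosin-binding protein gene Mybpc3 580 FPKM. Titin (Ttn) was not analysed here. In bulk RNA such as this, fewer cells of a type and less RNA per cell cannot be told apart, so none of the levels below gives a share of cells.

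Ventricular forms stood above atrial ones. Myl2, the ventricular regulatory light chain, was 14.2 times as high as its atrial counterpart Myl7 (10.7 to 18.9 over the bounds), at 2688 and 189 FPKM. For the essential light chains, ventricular Myl3 was 16.0 times as high as Myl4, the atrial and fetal form (12 to 21.1), at 2187 and 137 FPKM. Sarcolipin (Sln), the atrial partner of the SERCA pump, had 12.8 FPKM, and Bmp10, a growth factor of the atrial wall, had 0.123 FPKM with a lower bound of 0. Of the 7 atrial markers, 6 were at 1 FPKM or more, beside 61.5% of all rows, with a median of 23.1 FPKM. Among the pacemaker and conduction markers the T-type calcium channel gene Cacna1g (49.7 FPKM) and the pacemaker channel gene Hcn4 (25.3 FPKM) were the highest. The sinus node factors Shox2 (0.248 FPKM) and Isl1 (0.214 FPKM) lay below 1 FPKM.

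Markers of other cells were present at lower levels, with mesenchymal genes first. The 11 fibroblast markers had a median of 52.8 FPKM, which is 2.54% of the cardiomyocyte median, and 10 of them were at 1 FPKM or more, beside 61.5% of all rows. The highest were the collagen genes Col1a1 (817 FPKM, 684 to 950) and Col3a1 (737 FPKM, 617 to 857), and the matricellular gene Postn (314 FPKM). Pdgfra, a receptor on cardiac fibroblasts, had 7.51 FPKM. Col1a2, the partner chain of Col1a1 in type I collagen, was listed at 0 in all 6 groups. The smooth muscle and pericyte list had all 10 members at 1 FPKM or more, led by Tagln (1034 FPKM, 881 to 1187) and Acta2 (286 FPKM). Its median was 21.4 FPKM, and its lowest member was the pericyte channel gene Kcnj8 at 2.34 FPKM. Several of these genes, Acta2 and Tagln among them, are also made by immature cardiomyocytes and by activated fibroblasts.

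Endothelial and blood-derived markers were low. Of 10 endothelial markers 9 were at 1 FPKM or more, beside 61.5% of all rows, but their median of 2.69 FPKM lay below the 4.61 FPKM of all rows, and only Eng, a TGF-β co-receptor, was high at 48.7 FPKM (41.7 to 55.7). Pecam1, the adhesion molecule that marks all endothelium, had 3.04 FPKM, and Vwf, the clotting factor stored in endothelial cells, 0.276 FPKM. The 11 macrophage markers had a median of 2.85 FPKM. They were led by Cd74 (19 FPKM), Cd68 (7.64 FPKM) and the complement gene C1qa (5.0 FPKM), with the scavenger receptor gene Cd163 lowest at 0.0973 FPKM. The 7 lymphocyte markers had a median of 0.0994 FPKM, and the B cell gene Ms4a1 was listed at 0. Of 6 mast cell and granulocyte markers, only Kit (8.96 FPKM) exceeded 1 FPKM. The globin genes Hba1 (26.6 FPKM, 8.85 to 44.4) and Hbb (9.60 FPKM) were detected, while the red cell genes Alas2 (0.479 FPKM) and Slc4a1 (0.422 FPKM) were below 1 FPKM.

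Epicardial genes were detectable, with Aldh1a2, an enzyme of retinoic acid synthesis, at 11 FPKM and Wt1 at 0.886 FPKM. Schwann and neural genes ranged from Tubb3 at 7.88 FPKM down to Th, the first enzyme of catecholamine synthesis, at 0.0335 FPKM. Dbh, the enzyme that makes noradrenaline, had 5.21 FPKM (4.09 to 6.33). Of 5 fat cell genes, only Fabp4, at 7.50 FPKM (5.03 to 9.96), exceeded 1 FPKM. Adipoq (0.0302 FPKM) and Plin1 (0.198 FPKM) lay below it. The myogenic factors Myod1 (0.0200 FPKM) and Myf5 (0.00984 FPKM) were also near 0, whereas the skeletal muscle list held Mb and Ckm (665 FPKM), which heart muscle makes too.

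**Figure D2:**
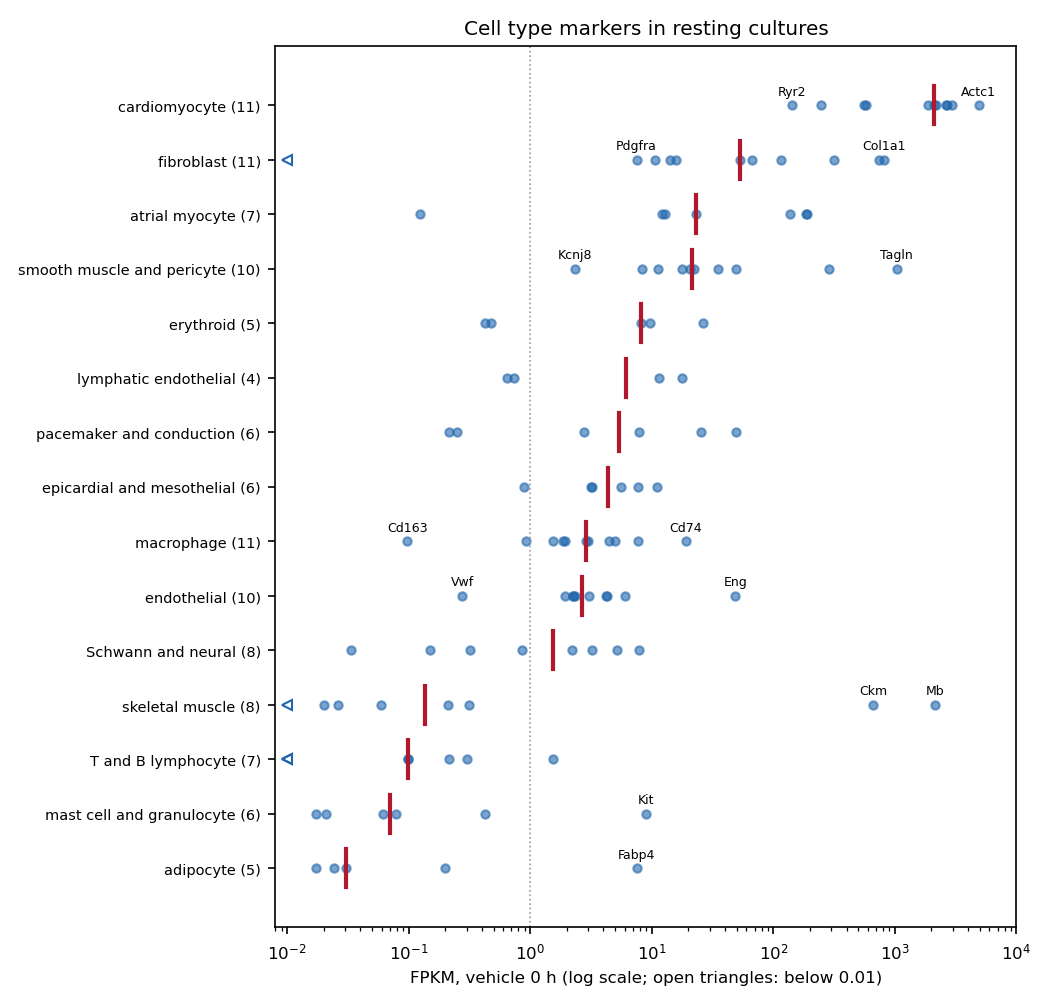
Authors' FPKM (horizontal axis, log scale) of each measured member of 15 cell type lists in vehicle at 0 h; points are genes, red bars list medians, open triangles values below 0.01 FPKM, and numbers in brackets the members in the table. The cardiomyocyte median (2082 FPKM) lies furthest right, followed by fibroblast (52.8 FPKM), and the adipocyte median (0.0302 FPKM) furthest left.

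Isoform choice was examined in 61 groups of related genes, of which 58 had at least 2 members with a level above 0. In 46 of these the leading member and the next had bounds that were apart. The leader held a median of 75.1% of its group's summed FPKM. It held 90% or more in 19 groups, between 50% and 90% in 32, and less than 50% in 7. These counts include the sarcomeric myosin heavy chains, whose member Myh6 had no estimate. Without that group, the leader stood apart in 45 of 57 and held 90% or more in 18. The same gene led in the vehicle and the SR9009 cultures at 0 h in 52 of the 58 groups, and in all 5 other groups of the study in 43. Those counts describe recurrence and test nothing.

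The thin filament used cardiac isoforms almost alone for troponin T and C. Tnnt2 held 99.8% of troponin T, with Tnnt1, the slow skeletal form, at 3.71 FPKM. Tnnc1 held 99.9% of troponin C, with Tnnc2 at 2.57 FPKM. Troponin I was mixed. Cardiac Tnni3 had 1891 FPKM (1648 to 2133) and Tnni1, the slow skeletal form that the fetal heart uses, 868 FPKM (749 to 987), so the fetal form stood 2.18 times lower than the adult one (1.67 to 2.85). Cardiac actin held 85.3% of the muscle actins, followed by skeletal Acta1 at 387 FPKM, smooth muscle Acta2 at 286 FPKM and Actg2 at 171 FPKM. Tpm1 (2105 FPKM) held 81.3% of the tropomyosins, and Mybpc3 99.2% of the myosin-binding proteins C.

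Myosin heavy chain could not be ranked, because Myh6, the adult rodent α chain, had no estimate. Its row carried the status HIDATA (too many fragments) at chr15:33605653-33629592, as did Mir208a and Mir3546 in the same locus. The ribosomal RNA rows Rn18s, Rn28s and Rn45s had that status too. Myh7, the fetal β chain, had 272 FPKM (238 to 307; chr15:33634422-33656089) and led only among those with a value. In the SR9009 cultures at 0 h, where Myh6 had a value, Myh6 led with 54.2% of the summed FPKM of the group, and Myh7 led in 1 of the other 5 groups. Myh7b followed at 24.2 FPKM, and the skeletal and embryonic chains Myh1, Myh2, Myh3, Myh4 and Myh8 were all below 1 FPKM. The non-muscle chain Myh10 (24.0 FPKM) and the smooth muscle chain Myh11 (22.1 FPKM) overlapped.

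The SERCA pump, its inhibitor, the sodium-calcium exchanger and calsequestrin were each led by the form known from heart muscle. Atp2a2 had 2359 FPKM (1885 to 2834), while Atp2a1 (0.596 FPKM) and Atp2a3 (0.329 FPKM) were below 1 FPKM. Phospholamban stood at 2082 FPKM against 12.8 FPKM for sarcolipin. The exchanger that carries calcium out of the cell, Slc8a1, had 209 FPKM (178 to 240), and Slc8a2 0.438 FPKM. Casq2, the cardiac calcium store protein, had 377 FPKM and Casq1 22.1 FPKM. Of the IP3 receptors, Itpr1 led at 19.1 FPKM (81.4% of the group), and Itpr2 had 2.09 FPKM. Ryr2 was the one ryanodine receptor analysed here.

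Ion channels were less uniform. The L-type pore Cacna1c (52.1 FPKM, 44.4 to 59.8) and the T-type pore Cacna1g (49.7 FPKM, 42.4 to 56.9), a fetal and pacemaker form, did not stand apart, and Cacna1h had 17.5 FPKM. The pacemaker channels Hcn4 (25.3 FPKM) and Hcn2 (21.6 FPKM) also overlapped. Connexin 43 (Gja1), the gap junction protein of the working myocardium, had 283 FPKM and held 86.4% of the connexins, with atrial and conduction connexin Gja5 at 23.1 FPKM.

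Receptors for the stimulus used later in the study were present before it was given. Adra1b had 39.5 FPKM (33.9 to 45.2; chr10:29392762-29450644) and Adra1d 36.3 FPKM (30.9 to 41.7; chr3:124129558-124145566), and these did not stand apart. Adra1a was lower, at 12.6 FPKM (10.2 to 15.0; chr15:43299385-43392431), with bounds clear of both. Their coupling G protein subunits Gna11 (31.8 FPKM) and Gnaq (20.4 FPKM) were apart. The β1-adrenergic receptor gene Adrb1 had 64.6 FPKM (55.4 to 73.7). The α2 receptors Adra2a (0.701 FPKM) and Adra2b (0.596 FPKM) were below 1 FPKM.

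**Figure D3:**
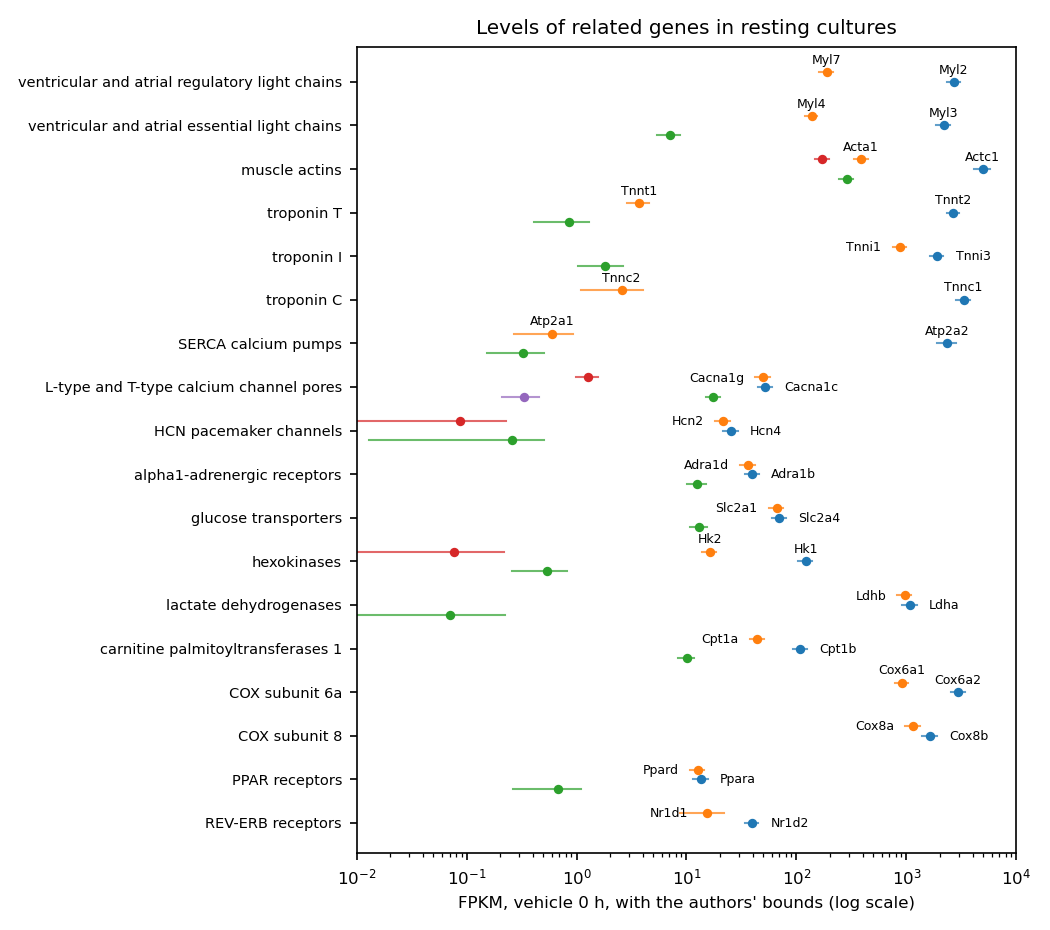
Authors' FPKM (horizontal axis, log scale, lines for the bounds) of related genes in vehicle at 0 h, with the highest gene of each group in blue, the next in orange, and the others in green, red and purple. Tnnt2, Tnnc1 and Atp2a2 stand far from their relatives, while Cacna1c and Cacna1g, Hcn4 and Hcn2, Adra1b and Adra1d, Slc2a4 and Slc2a1, Ldha and Ldhb, and Ppara and Ppard overlap.

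Genes of oxidative phosphorylation were among the most abundant of all. The 70 measured subunits of the respiratory chain complexes I, III and IV and the ATP synthase summed to 10.6% of the FPKM of all coding rows (9.04% to 12.2% over the bounds). The 35 genes of the sarcomere families, without an estimate for Myh6, summed to 4.42% (3.81% to 5.04%). Those families also hold forms of smooth muscle and other cells, such as Acta2 and Actn4. The 43 cytoplasmic ribosomal proteins summed to 7.50%. Medians differed along the chain, from 369 FPKM for complex I and 539 FPKM for complex III to 1424 FPKM for complex IV and 1031 FPKM for the ATP synthase, beside 5.21 FPKM for all coding rows. All 11 genes of the complex IV list were at 912 FPKM or more, the lowest being Cox6a1; the list leaves out Cox4i2, the subunit 4 form of lung, which had 4.03 FPKM. The complex I list was led by Ndufa4 (932 FPKM), which is now assigned to complex IV, followed by Ndufb4 (909 FPKM) and Ndufb8 (782 FPKM).

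Muscle forms of cytochrome c oxidase subunits were prominent. Cox6a2 (2956 FPKM, 2524 to 3388) was 3.24 times as high as the widely expressed Cox6a1 (912 FPKM). Cox8b (1644 FPKM, 1397 to 1890) exceeded Cox8a (1150 FPKM, 979 to 1320) with bounds apart, and Cox8b led in none of the other 5 groups. Cox4i1 held 99.7% of subunit 4. The heart and muscle ADP/ATP carrier Slc25a4 had 1582 FPKM and the more general Slc25a5 571 FPKM.

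The citrate cycle genes in the table were all at 1 FPKM or more. Idh2, the mitochondrial NADP-dependent isocitrate dehydrogenase, had 595 FPKM and Sdhd, a membrane anchor of succinate dehydrogenase, 454 FPKM. The lowest was Ogdh, the E1 part of α-ketoglutarate dehydrogenase, at 61.6 FPKM. Their median was 267 FPKM.

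Fatty acid handling was led by Fabp3, the heart fatty acid binding protein, at 1296 FPKM (1089 to 1503), followed by Hadhb of the trifunctional protein at 477 FPKM and the fatty acid transporter gene Cd36 at 208 FPKM. Of the 22 genes, 20 were at 1 FPKM or more, beside 61.5% of all rows, with a median of 110 FPKM. The muscle form of the carnitine shuttle enzyme, Cpt1b, had 108 FPKM (92.3 to 124), and the liver form Cpt1a, abundant in the fetal heart, 44.2 FPKM (37.8 to 50.6), a ratio of 2.45 (1.82 to 3.29). Ucp3, a mitochondrial carrier that fatty acids induce, stood at 0.130 FPKM. Among ketone and branched-chain genes, Oxct1, which lets the heart use ketone bodies, led at 141 FPKM.

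Of 18 glycolysis genes, 17 were at 1 FPKM or more, beside 61.5% of all rows, with a median of 139 FPKM. Gapdh (2257 FPKM), Aldoa (1359 FPKM) and Ldha (1077 FPKM) were the highest. Summed FPKM was 1.5% of the coding sum for these 18 genes (1.28% to 1.73%) and 0.708% for the 22 fatty acid genes (0.603% to 0.812%), so the bounds of the sums did not overlap. The sums depend on which genes each list holds, so they do not rank the pathways. They include Tpi1 (0.120 FPKM) and Echs1 (listed at 0), rows discussed below. Lactate dehydrogenase was mixed, with Ldha, the muscle form, at 1077 FPKM (914 to 1239) and Ldhb, the heart form, at 966 FPKM (821 to 1110). The insulin-responsive glucose transporter Slc2a4 (69.8 FPKM, 59.5 to 80.1) and the constitutive, fetal Slc2a1 (65.9 FPKM, 55.9 to 75.9) did not stand apart. Hk1 had 121 FPKM and Hk2 16.3 FPKM, a ratio of 7.43 (5.54 to 9.98). Of the kinases that switch off pyruvate dehydrogenase, Pdk2 led at 101 FPKM, and Pdk4, which fasting and fatty acids induce, had 12.2 FPKM.

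Regulators of these genes were at moderate levels. Esrra, a driver of mitochondrial genes, had 54.7 FPKM and Esrrg 17.9 FPKM. Ppara (13.7 FPKM, 11.5 to 15.8) and Ppard (12.7 FPKM, 10.8 to 14.6) overlapped, and Pparg, the fat cell form, had 0.679 FPKM. The Pparg row carries 3 transcription start identifiers, a kind of row discussed below, so its low level was not read as absence. The coactivator gene Ppargc1a had 26.4 FPKM and Ppargc1b 17.5 FPKM. Sterol and fatty acid synthesis genes had a median of 31.4 FPKM, led by Fdps (134 FPKM), Hmgcs1 (88.4 FPKM) and Cyp51 (70.5 FPKM).

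**Figure D4:**
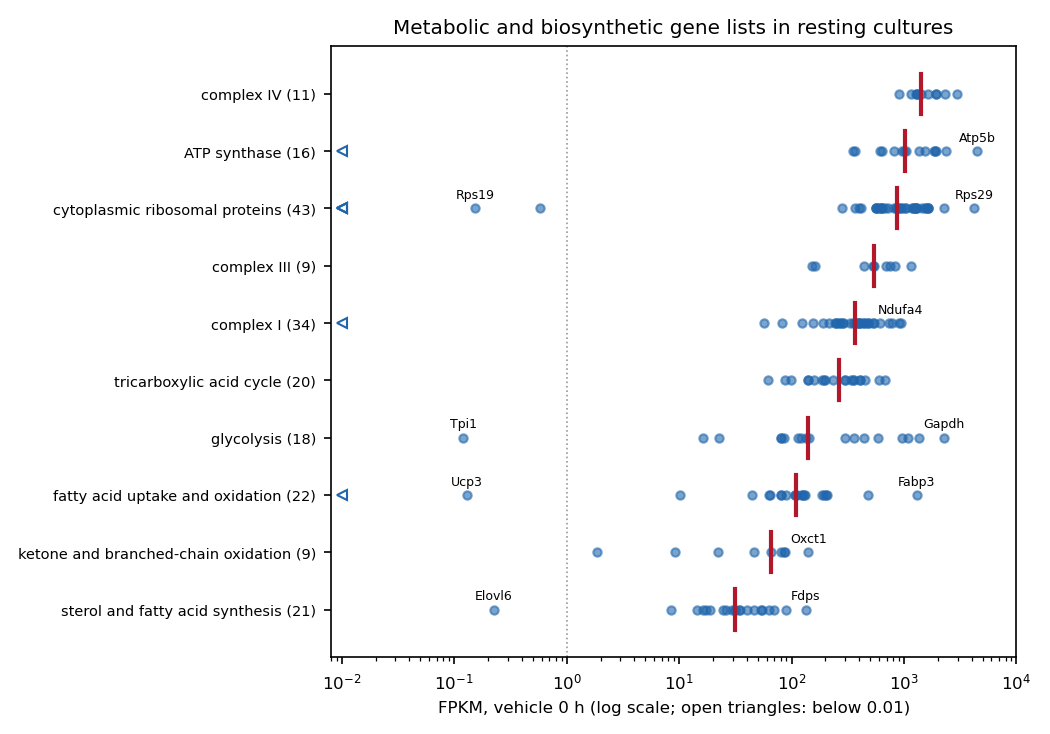
Authors' FPKM (horizontal axis, log scale) of each measured member of 10 metabolic and biosynthetic lists in vehicle at 0 h; points are genes, red bars list medians and open triangles values below 0.01 FPKM. Complex IV (median 1424 FPKM) and the ATP synthase (1031 FPKM) lie furthest right, sterol and fatty acid synthesis (31.4 FPKM) furthest left.

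The targets of the study's pretreatment were measured in these untreated cells. REV-ERBβ (Nr1d2) had 39.2 FPKM (34.1 to 44.3; chr15:8730871-8757165) and REV-ERBα (Nr1d1) 15.3 FPKM (8.81 to 21.7), so the bounds were apart. Nr1d1 lies in a locus that it shares with the thyroid hormone receptor gene Thra (49.5 FPKM; chr10:86657285-86690815), and the genes overlap on opposite strands. The sources used here do not state how the authors' counting treated strand, so the Nr1d1 level is uncertain. The Nr1d1 row also carries 2 transcription start identifiers, and such rows were often listed at 0, as described below. Genes of the NCOR-HDAC3 corepressor complex, through which REV-ERB receptors repress, lay in a narrow range, from Gps2 (16.3 FPKM) through Tbl1x (21.7 FPKM), Ncor1 (22.6 FPKM) and Tbl1xr1 (27.3 FPKM) to Hdac3 (30.2 FPKM). Of the ROR receptors, which compete for the same sites, Rorb had 0.406 FPKM, while Rora was not analysed here.

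All 15 measured clock genes were at 1 FPKM or more, beside 61.5% of all rows, with a median of 13.3 FPKM. The activators were Clock at 21.4 FPKM, Arntl (BMAL1) at 7.50 FPKM and Npas2 at 1.33 FPKM. The feedback repressors lay between 6.96 and 17.9 FPKM, with Per3 at 17.9, Cry2 at 13.3, Cry1 at 10.3, Per1 at 7.10 and Per2 at 6.96 FPKM. The output factors Tef (35.3 FPKM) and Dbp (26.9 FPKM) were the highest after Nr1d2, and the repressor gene Bhlhe40 had 21.2 FPKM. Nfil3, which opposes Dbp, had 13.3 FPKM, and Ciart had 2.66 FPKM. The harvest hour is not in the labels, so these are levels at an unknown phase.

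Genes that mark hypertrophy were expressed before the stimulus. All 14 measured members of that list were at 1 FPKM or more, beside 61.5% of all rows, and 9 were at 100 FPKM or more, beside 5.34%. Their median was 154 FPKM. Ankrd1, a stretch-responsive protein of the Z disc and nucleus, led at 1346 FPKM (1136 to 1557), followed by Fhl2 (890 FPKM) and Acta1 (387 FPKM). The natriuretic peptide genes Nppa and Nppb had 184 FPKM (158 to 210) and 105 FPKM (90.3 to 121), a ratio of 1.75 (1.31 to 2.33), and Xirp2 was lowest at 10.4 FPKM. Immediate early genes were low by comparison, with a median of 8.47 FPKM. Jund (72.4 FPKM), Ier3 (64.4 FPKM) and Dusp1 (54.3 FPKM) led them, and Fosb was lowest at 0.264 FPKM.

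Among the transcription factors of the heart, Mef2a had 151 FPKM, Tbx20 98.7 FPKM and Nkx2-5 90.5 FPKM. Gata4 (80.0 FPKM, 68.3 to 91.7) and Gata6 (69.9 FPKM, 59.6 to 80.2) overlapped, and Gata5 had 50.8 FPKM. Hand2 (56.1 FPKM) was 88.5 times as high as Hand1 (40.5 to 614), which in the embryo favours the left ventricle. Hey2, a ventricular factor, was the lowest of the list at 8.33 FPKM.

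Some zeros in the table were tied to how a gene was annotated and were not read as absence. Each row carries the number of transcription start identifiers that the authors' annotation gave it. Of 15574 coding rows with 1 identifier, 64.7% were at 1 FPKM or more and 6.22% were listed at 0. Of 749 with 2 or more, 32.4% were at 1 FPKM or more and 51.7% were listed at 0. Of the 27 rows whose value lay outside its own bounds, 24 were coding rows with 2 or more identifiers.

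The same was seen in lists that include genes every cell uses. In the lists for ribosomal proteins, glycolysis, the citrate cycle, fatty acids, oxidative phosphorylation and matrix, 10 of 17 members with 2 or more identifiers lay below 1 FPKM, beside 1 of 177 with 1 identifier, which was Ucp3. The 10 were Rps6, Rps9, Rplp2, Ndufa1, Atp5f1, Col1a2 and Echs1, listed at 0, and Tpi1 (0.120 FPKM), Rps19 (0.153 FPKM) and Rpl8 (0.580 FPKM). Of the 7 at 0, all but Echs1 were at 0 in all 6 groups. Tpi1, a glycolytic enzyme with no close relative, stood far below Gapdh (2257 FPKM), which acts next to it. In the isoform comparisons Eno2, Slc2a3, Gata1 and Col1a2 were listed at 0 and carry 2 or more identifiers, so the shares of Eno1, Slc2a4, Gata4 and Col1a1 are upper values if those zeros are failed estimates. The cause of the zeros was not tested.

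**Figure D5:**
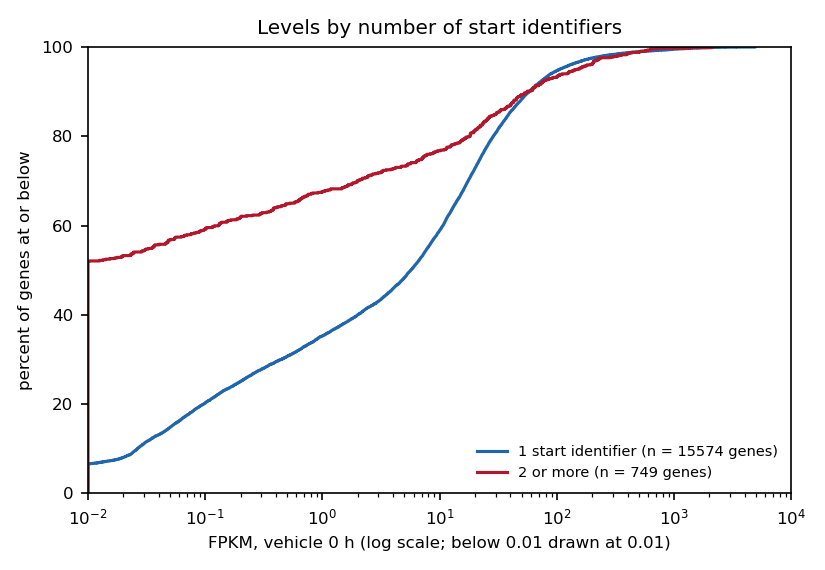
Percent of protein-coding genes (vertical axis) at or below a given authors' FPKM (horizontal axis, log scale, values below 0.01 drawn at 0.01) in vehicle at 0 h, for genes with 1 start identifier (blue, 15574 genes) and with 2 or more (red, 749 genes). The red curve starts above 50% because 51.7% of those genes are listed at 0.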

How the data were processed

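RNA was sequenced from 18 libraries in 6 groups, and the 3 libraries of vehicle at 0 h are described. Per the labels, the library kit was a stranded one for mRNA. The authors deposited 1 FPKM per gene and group with bounds, status and locus, per the file headers. Per the submitters' processing notes, the tools were FastQC, Trim Galore, TopHat and Cuffdiff on build rn6, without versions. Means over libraries had been planned, but the deposited values are 1 per group, so nothing was tested and the depth is unknown.

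Rows of status OK were ranked, summed and grouped with Python 3.11.15, pandas 2.3.3 and numpy 2.4.6; figures used matplotlib 3.10.9. Symbols were matched to RefSeq for biotype (16893 rows, 413 unmatched) and promoters. The script was tested on simulated data. Families, 15 cell type lists and 24 pathway lists were chosen with earlier results of these data known. Named by rule were the 30 highest genes, all family members, the 3 highest and the lowest of each list, all α1-adrenergic, REV-ERB, ROR, clock and corepressor genes, and rows without status OK; a few of these are not reported here. Other names, and the promoters printed, were chosen after their values were seen. Alternatives were other FPKM thresholds, lower bounds, rescaling, other row filters, pseudocounts and the SR9009 0 h group. No per-sample column was left unused.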

Additional observations from a re-analysis of the deposited data

How the results depend on the processing

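No paired analysis was possible because the table holds 1 pooled value per group, and for the same reason no replicate could be left out. Every alternative run kept its main result's direction and stayed within 1.5 times of a main count. The 10638 rows at 1 FPKM or more became 11419 at a threshold of 0.5 FPKM, 8499 at 5 FPKM, 10025 by the lower bound and 11210 after rescaling. The share of the 100 highest rows lay between 29.1% and 33.7%, and the rows making up 50% of the sum between 293 and 393. Leading members stood apart in 40 groups where a ratio of 2 was required and in 42 with rows of 1 start identifier. Alternatives restricted to coding rows, to 1 start identifier or to groups without a row of another status, and the count over the other 5 groups, were chosen after seeing the data. Taking rows of any status adds only rows listed at 0, and no mitochondrially encoded gene was analysed here. The bounds carry whatever spread between libraries the authors' tool included. Low levels, such as those of Bmp10, Isl1 and Th with lower bounds at 0, cannot be distinguished from 0.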

Other observations

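Cell cycle genes were detectable in the resting cultures. All 28 measured members were at 1 FPKM or more, beside 61.5% of all rows, with a median of 12.1 FPKM. Ccnd2 (125 FPKM), Ccnd3 (106 FPKM) and Pcna (62.1 FPKM) led, and Cenpf, a protein of mitotic kinetochores, was lowest at 2.61 FPKM (2.21 to 3.01). The inhibitor gene Cdkn1a stood at 215 FPKM (184 to 246), above Cdkn1b (49.4 FPKM) and Cdkn1c (38.4 FPKM). Which cells of the culture carry these transcripts was not tested.

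The 21 matrix genes had a median of 188 FPKM, led by Sparc (1115 FPKM), which binds collagen, and summed to 1.05% of the coding FPKM. Calr (415 FPKM), Hspa5 (bounds 340 to 459 FPKM) and Pdia6 (284 FPKM), which fold proteins in the endoplasmic reticulum, led their list of 17, and Chac1 was lowest at 15.6 FPKM. Of the antioxidant genes, Sod1 (588 FPKM), Prdx1 (503 FPKM) and Gpx1 (416 FPKM) were the highest. Of 12 interferon response genes, 7 were at 1 FPKM or more, a share near the 61.5% of all rows, and their median was 2.25 FPKM, beside 4.61 FPKM for all rows. Irf1 had 14.3 FPKM and Irf7 13.9 FPKM.

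The hypoxia list ran from Ankrd37 (2.03 FPKM) to Vegfa (127 FPKM). Among imprinted growth genes, Grb10 (98.3 FPKM), Mest (90.7 FPKM) and Cdkn1c led, and Dlk1 was lowest at 1.99 FPKM. Igf1 (14.9 FPKM, 12.5 to 17.4) exceeded Igf2 (7.31 FPKM, 6.41 to 8.21), and both rows carry 2 or more start identifiers. Their receptor Igf1r had 10.8 FPKM, and the insulin receptor Insr 19.9 FPKM. Igf2r (127 FPKM), the glucocorticoid receptor Nr3c1 (69.7 FPKM) and the endothelin receptor Ednra (59.8 FPKM) led the receptor list, and Agtr1b was lowest at 0.138 FPKM.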
